A study of Mus musculus with 6 samples.

Results

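The transcripts of the YAP and TAZ coactivators and of the factors that bind TEAD were examined in mouse skin: *Yap1*, *Wwtr1* (which encodes TAZ), *Tead1*, *Tead2*, *Tead3*, *Tead4*, *Vgll1*, *Vgll3* and *Vgll4*. They were chosen by name, as the rows of the count table whose Ensembl identifier carries one of these symbols in GENCODE M21 (GRCm38). All 9 were found among the 26579 genes of the table, and 8 of them were among the 15102 genes that reached 1 CPM in 3 or more libraries and were tested. CPM is the read count of a gene relative to the total of its library. The CPM values given here are after TMM scaling, whereas the filter used CPM before it. RNA-Seq had been performed on biopsies of the dorsal neck skin of female mice at 33 days of age, from 3 wild type littermates and 3 YAP2-5SA-∆C transgenic mice with the first visible signs of the skin phenotype. The transgene encodes a mildly activated mutant of YAP and is expressed in basal keratinocytes, whereas each library holds the RNA of whole skin from 1 mouse. The background strain, and whether transgene reads fell on mouse *Yap1* in the counting, are not given in the sources used here.

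Library totals ranged from 11225705 to 19505036 counts, and 3 counts, taken as the limit of detection, corresponded to 0.157 to 0.285 CPM. Between wild type and YAP2-5SA-∆C skin (called transgenic skin here), 288 of the 15102 tested genes (1.91%) had an FDR under 0.05 by quasi-likelihood testing with edgeR (the edgeR QL test). Markers of both keratinocyte layers were abundant in every library. The summed level of 8 basal keratinocyte markers was 4363 to 5286 CPM in wild type and 6916 to 8664 CPM in transgenic skin, and that of 9 markers of the hair shaft and inner root sheath was 12959 to 16034 CPM against 1436 to 8708 CPM. Transgenic replicate 2 stood apart. It had the lowest hair sum (1436 CPM, against 6904 and 8708 CPM in the other transgenic libraries), the lowest sum of 6 melanocyte markers (186 CPM, against 305 and 312 CPM) and the highest sum of 7 suprabasal keratinocyte markers (10470 CPM, against 6855 and 6147 CPM). In whole skin, fewer cells of a type and less RNA per cell cannot be told apart.

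YAP and TAZ are related transcriptional coactivators that the Hippo kinases hold in the cytoplasm by phosphorylation. They have no DNA-binding domain and act in the nucleus mainly through the TEAD factors, which bind DNA on their own but depend on partners to activate transcription. The VGLL proteins bind the same surface of TEAD as YAP and TAZ do, and VGLL4 is known as an antagonist of YAP. In the epidermis, YAP is known for its activity in the basal layer, where it promotes proliferation of progenitor cells.

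The promoters of the members were examined for the letters that TEAD factors recognise, GGAATG and its reverse complement CATTCC, to show what sequence lies around the starts of the genes described here. These letters were chosen after the sequences of the members had been seen, so the match is a description. Promoter windows of 300 bases (250 before and 50 after the start, RefSeq, GRCm38.p6) were at hand for 7 of the 9 members, not for *Tead1* and *Tead4*. A gene can have more than 1 window. Of the 10 windows of these members, 8 (80%) held at least 1 match on either strand, against 4817 of all 32851 windows (14.7%). By gene, a match lay in a window of 6 of the 7 (85.7%), *Tead2* being the exception, against 4481 of all 27025 genes with such windows (16.6%). The following stretches of 30 bases, each written on the strand of its gene with the match in capitals, mark 1 match for each of these genes and a second for *Tead3*, whose second stretch holds the letters once more in lower case.
*Yap1*, chr9:8004720-8004749, minus strand: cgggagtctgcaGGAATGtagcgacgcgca
*Wwtr1*, chr3:57576029-57576058, minus strand: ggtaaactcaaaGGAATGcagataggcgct
*Tead3*, chr17:28350970-28350999, minus strand: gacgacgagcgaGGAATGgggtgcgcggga
*Tead3*, chr17:28350706-28350735, minus strand: tccggccgggctCATTCCgtacattccggc
*Vgll1*, chrX:57087932-57087961, plus strand: atctgttttcctCATTCCtgcaggtgccta
*Vgll3*, chr16:65815114-65815143, plus strand: cccgcctccccaCATTCCggctaccctgcc
*Vgll4*, chr6:114969268-114969297, minus strand: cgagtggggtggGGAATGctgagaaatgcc
Counted from the RefSeq start of the window that holds it, the match began 141 bases before the start for *Yap1*, 136 for *Wwtr1*, 63 for *Vgll3* and 82 for *Vgll4*. For *Tead3*, *Vgll3* and *Vgll4* the RefSeq starts are not the outer end of the gene in GENCODE given below, and the second *Tead3* match and the *Vgll4* match lie inside those genes. Binding was not measured in this series, and a match does not show that a site is used.

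None of the 8 tested members passed an FDR of 0.05 between YAP2-5SA-∆C and wild type skin in the edgeR QL test, against 1.91% of all tested genes (1.44% called higher and 0.464% called lower, so that 75.7% of the calls were higher, against 53.1% with the likelihood-ratio test, 60.3% with DESeq2 and 49.9% without transgenic replicate 2), and 0 passed with the likelihood-ratio test, with voom or with DESeq2. At an unadjusted p-value below 0.05, 1 of 8 differed (*Tead4*), against 26.3% of all genes. This count moved with single libraries: it was 0 without wild type replicate 2, and 4 without transgenic replicate 3 (*Tead1*, *Tead4*, *Vgll3* and *Vgll4*, unadjusted p-values from 0.0182 to 0.0407, lowest FDR 0.130 in the edgeR QL test), a fit in which 3692 of 14925 genes reached that level. The fitted log2 fold change (YAP2-5SA-∆C over wild type) was positive for 6 members and negative for 2, with a median of 0.07 and a range from -0.14 to 0.43. Over all tested genes the median was -0.01. The median size of the log2 fold change regardless of sign was 0.11 for the members and 0.16 for all genes. The libraries of both genotypes overlapped for 7 of the 8 members, whereas they did not overlap for 33.8% of all tested genes.

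**Figure D1:**
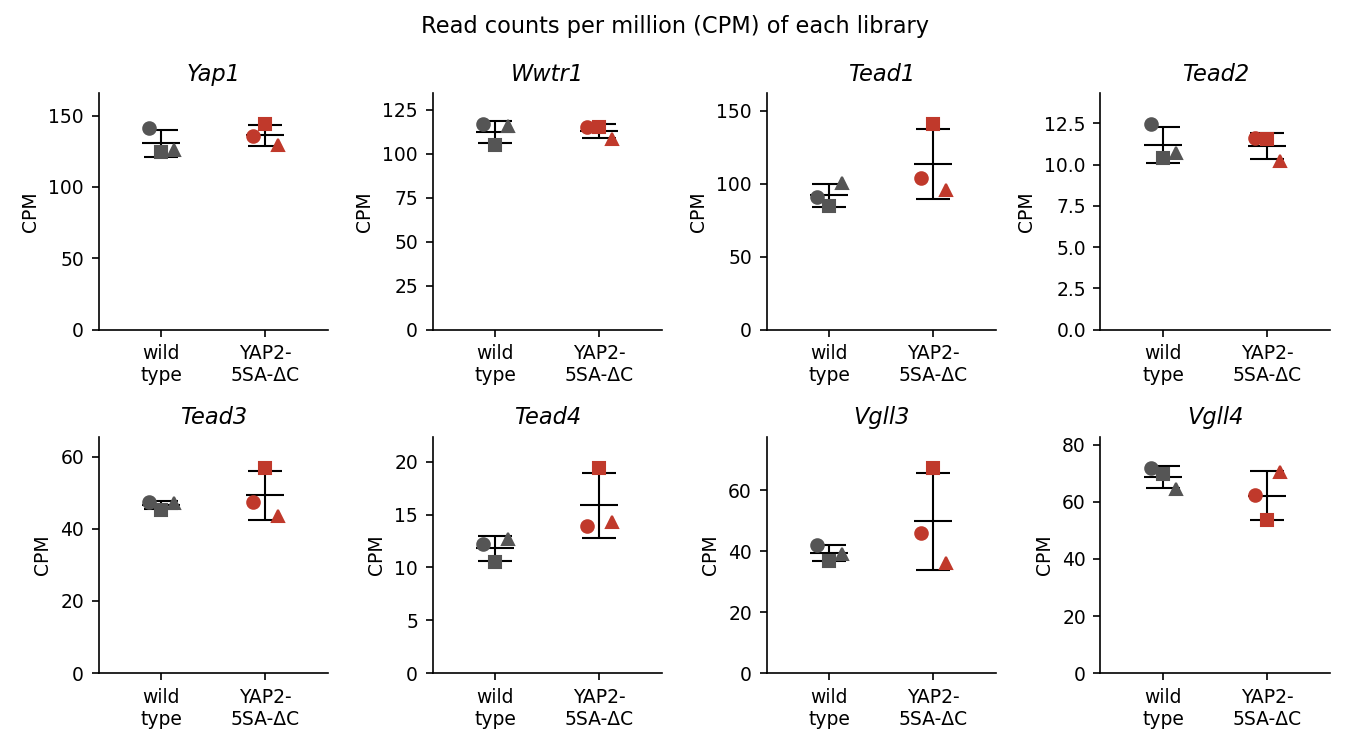
Level (CPM, vertical axis, from 0) of the 8 tested members in each library. Circles, squares and triangles stand for replicates 1, 2 and 3, grey for wild type and red for YAP2-5SA-∆C, and the lines give the mean ± SD (n = 3). *Yap1* and *Wwtr1* lay at similar levels in both genotypes, and transgenic replicate 2 (red square) was the highest library for *Yap1*, *Tead1*, *Tead3*, *Tead4* and *Vgll3* and the lowest for *Vgll4*.

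*Yap1* (ENSMUSG00000053110, chromosome 9 from 7931999 to 8004596, minus strand) is the endogenous gene of the protein that the transgene carries in mutant form. Its level was 141, 124 and 126 CPM in wild type replicates 1, 2 and 3, and 135, 144 and 129 CPM in transgenic replicates 1, 2 and 3. The genotypes overlapped. Mean levels were 131 ± 9.45 CPM in wild type and 136 ± 7.31 CPM in transgenic skin (SD, n = 3 each). For *Yap1* a log2 fold change of 0.06 was fitted (standard error 0.07, FDR 0.635 in the edgeR QL test), with a 95% interval from -0.11 to 0.23, so that a change in the counts of *Yap1* between 0.925-fold and 1.18-fold lay within the interval. The *Yap1* counts thus give no check of the genotype labels. Of the exons of *Yap1*, 116 bases (1.25%) overlap *Gm20416* on the opposite strand, and the strand setting of the counting is not given in the sources used here.

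*Wwtr1* (ENSMUSG00000027803, chromosome 3 from 57455649 to 57575910, minus strand) encodes TAZ, the paralog of YAP. It had 117, 105 and 116 CPM in the wild type libraries and 115, 115 and 108 CPM in the transgenic libraries. The means, 112 ± 6.36 and 113 ± 3.89 CPM (SD, n = 3 each), differed by less than the SD of either genotype. A log2 fold change of 0.00 (standard error 0.06, FDR 0.978) was fitted by the edgeR QL test, with a 95% interval from -0.15 to 0.15. Expressed per kilobase of exon (CPM per kb of the union of all annotated exons), *Yap1* made up 37.5% ± 1.32 of the sum of *Yap1* and *Wwtr1* in wild type and 38.4% ± 0.756 in transgenic skin (SD, n = 3 each; two-sided exact permutation test, p = 0.5, adjusted p = 0.5 over 7 share tests). With 3 libraries against 3, this test cannot give a p-value below 0.1. The share itself depended on the length used. Divided by the longest transcript, *Yap1* made up 50.8% ± 1.42 in wild type and 51.8% ± 0.796 in transgenic skin (SD, n = 3 each).

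The genes whose log2 CPM followed that of the coactivators most closely over the 6 libraries were *Atg3* (Pearson's r = 0.989), *Sec62* (0.987) and *Trappc10* (0.984) for *Yap1*, and *Cep131* (0.990), *Pced1b* (0.987) and *Nup107* (0.985) for *Wwtr1*. These were picked as the highest of all tested genes, and the values are given as a description. For *Sec62* the libraries had 141, 124 and 123 CPM in wild type and 132, 144 and 129 CPM in transgenic skin, each close to the CPM of *Yap1* in the same library. These values were not divided by length, so they do not compare the transcript levels of the genes.

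The 4 TEAD genes encode the DNA-binding partners of the coactivators. *Tead4* (ENSMUSG00000030353, chromosome 6 from 128224288 to 128300823, minus strand) had 12.2, 10.5 and 12.7 CPM in wild type and 13.9, 19.4 and 14.3 CPM in transgenic skin. It was the only one of the 8 tested members whose genotypes did not overlap, with each transgenic library above each wild type library, as was the case for 15.5% of all tested genes. The means were 11.8 ± 1.16 and 15.9 ± 3.09 CPM (SD, n = 3 each), a 1.35-fold difference (95% interval 1.05 to 1.73) and a log2 fold change of 0.43 (standard error 0.15). *Tead4* had an unadjusted p-value of 0.0263 and an FDR of 0.138 in the edgeR QL test, and its FDR ranged from 0.116 to 0.338 over the alternative fits. Without transgenic replicate 2, the log2 fold change of *Tead4* was 0.28 (FDR 0.233, edgeR QL test).

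*Tead1* (ENSMUSG00000055320, chromosome 7 from 112679318 to 112906807, plus strand) had 90.7, 84.6 and 100.4 CPM in the wild type libraries and 103.9, 140.6 and 95.8 CPM in the transgenic libraries. Transgenic replicate 2 was the highest, and replicate 3 of the same genotype lay within the wild type range. The means of 91.9 ± 7.97 and 113 ± 23.9 CPM (SD, n = 3 each) gave a log2 fold change of 0.30 (standard error 0.15, FDR 0.238 in the edgeR QL test), with a 95% interval from -0.04 to 0.65. This value fell to 0.14 (FDR 0.430) when transgenic replicate 2 was left out.

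*Tead3* (ENSMUSG00000002249, chromosome 17 from 28331671 to 28350817, minus strand) varied least of all members among the wild type libraries, with 47.6, 45.3 and 47.1 CPM. In YAP2-5SA-∆C skin it had 47.3, 56.9 and 43.6 CPM, on both sides of the wild type values. The log2 fold change of *Tead3* was 0.08 (standard error 0.10, FDR 0.662, edgeR QL test) and its 95% interval ran from -0.16 to 0.32. It was -0.02 without transgenic replicate 2.

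*Tead2* (ENSMUSG00000030796, chromosome 7 from 45215753 to 45233644, plus strand) is best known for its expression in the early embryo. It had 12.4, 10.4 and 10.7 CPM in wild type and 11.6, 11.6 and 10.2 CPM in transgenic skin, so that the genotypes lay over each other. With means of 11.2 ± 1.10 and 11.1 ± 0.791 CPM (SD, n = 3 each), *Tead2* had a fitted log2 fold change of -0.01 (standard error 0.11, FDR 0.964, edgeR QL test, 95% interval -0.27 to 0.25), and its sign changed with the scaling. *Tead2* shares 13 exonic bases (0.272%) with *Cd37* on the opposite strand. For *Tead1*, *Tead3* and *Tead4* no overlap with another gene was found.

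**Figure D2:**
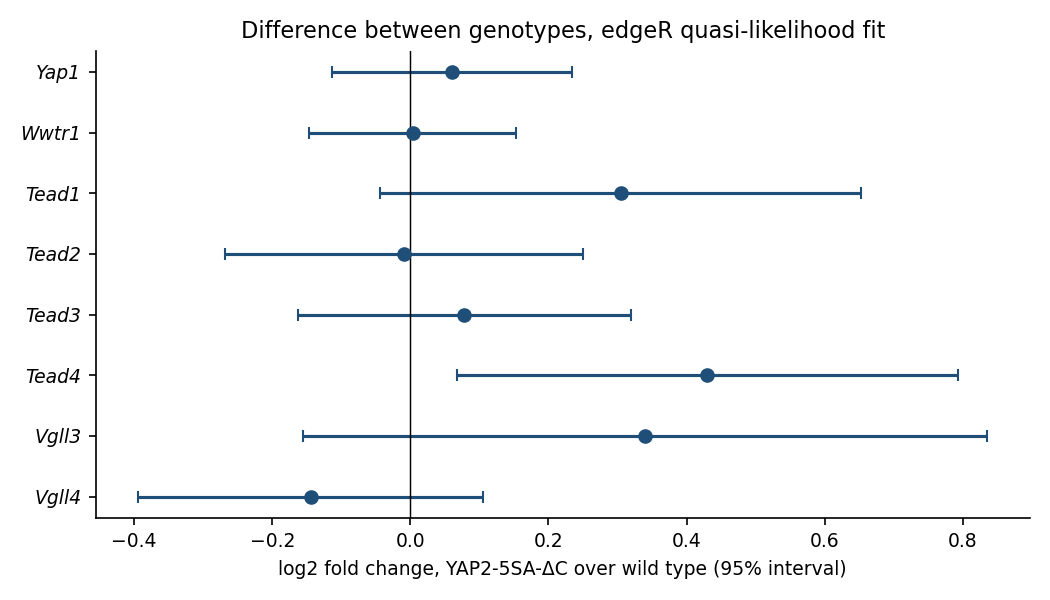
Log2 fold change (YAP2-5SA-∆C over wild type, horizontal axis) of the 8 tested members in the edgeR QL fit, with 95% intervals. The interval of *Tead4* (0.07 to 0.79) lay above 0 before adjustment for the number of genes tested, and the other 7 intervals held 0.

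The make-up of the TEAD family was compared per kilobase of exon, each gene as a share of the sum of the 4. *Tead1* and *Tead3* were the main TEAD transcripts of the skin, with 35.0% ± 1.47 and 36.0% ± 1.31 of the sum in wild type and 37.1% ± 1.57 and 32.8% ± 0.906 in transgenic skin (SD, n = 3 each). The share of *Tead4* was 17.1%, 16.1% and 17.5% in the wild type libraries and 18.4%, 20.3% and 20.2% in the transgenic libraries, without overlap, a difference of 2.69 percentage points. *Tead3* did not overlap either and differed by -3.20 percentage points. Both reached the smallest p that this design allows (two-sided exact permutation test, p = 0.1, adjusted p = 0.35 over 7 tests). For *Tead1* the difference was 2.11 points (exact permutation test, p = 0.3, adjusted p = 0.467), and for *Tead2*, with 12.1% ± 1.04 and 10.5% ± 1.28 (SD, n = 3 each), it was -1.61 points (exact permutation test, p = 0.2, adjusted p = 0.467). The differences in the shares of *Tead4* and *Tead3* were 2.30 to 3.28 and -3.82 to -2.51 points when each library in turn was left out. For *Tead1* and *Tead2* they were 1.215 to 2.936 and -2.134 to -0.895 points. Shares of 1 sum are not independent of each other. The make-up also depended on the length used. Divided by the longest transcript, *Tead1* made up 30.8% ± 1.4 in wild type and 33.2% ± 1.5 in transgenic skin. On that scale *Tead3* made up 45.4% ± 1.4 and 42.0% ± 0.958, and *Tead4* 12.8% ± 0.610 and 15.1% ± 0.850 (SD, n = 3 each).

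**Figure D3:**
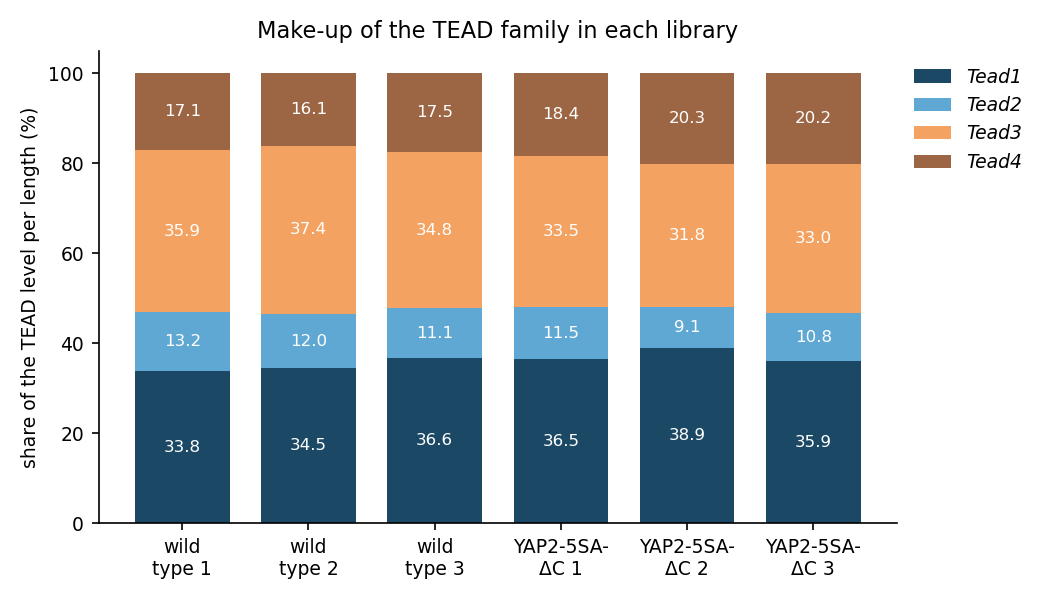
Share (%) of each TEAD gene in the summed TEAD level, in CPM per kb of exon, for each of the 6 libraries (stacked bars, 0 to 100). The *Tead4* segment, at the top, was 16.1% to 17.5% in wild type and 18.4% to 20.3% in transgenic skin.

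Among the VGLL cofactors, *Vgll4* (ENSMUSG00000030315, chromosome 6 from 114860628 to 114969994, minus strand) had 71.9, 69.6 and 64.5 CPM in wild type and 62.3, 53.5 and 70.6 CPM in transgenic skin. Transgenic replicate 2 was the lowest library and replicate 3 lay within the wild type range. The means were 68.6 ± 3.79 and 62.1 ± 8.54 CPM (SD, n = 3 each), with a log2 fold change of -0.14 (standard error 0.11, FDR 0.419 in the edgeR QL test) and a 95% interval from -0.39 to 0.11. Without transgenic replicate 2 the log2 fold change of *Vgll4* was -0.03, and without transgenic replicate 3 it was -0.24 (unadjusted p-value 0.0407, FDR 0.183, edgeR QL test).

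*Vgll3* (ENSMUSG00000091243, chromosome 16 from 65815257 to 65866368, plus strand), known as a female-biased regulator of immune genes in human skin, had 42.1, 36.7 and 39.2 CPM in wild type and 45.9, 67.3 and 36.2 CPM in transgenic skin. It had the widest spread of the tested members among the transgenic libraries (coefficient of variation 32.0%, against 6.82% in wild type), and replicate 3 of the transgenic mice lay below all wild type libraries. The log2 fold change was 0.34 (standard error 0.21, FDR 0.342 in the edgeR QL test, 95% interval -0.15 to 0.84), with values of 0.08 without transgenic replicate 2 and 0.53 without transgenic replicate 3 (unadjusted p-value 0.0182, FDR 0.130, edgeR QL test). As a share of the VGLL sum per kilobase, *Vgll3* made up 30.3% ± 1.54 in wild type and 37.6% ± 10.5 in transgenic skin (SD, n = 3 each; two-sided exact permutation test, p = 0.4, adjusted p = 0.467 over 7 tests). The difference of 7.27 percentage points fell to 1.63 points without transgenic replicate 2, in which *Vgll3* took 48.9%, and rose to 12.1 points without transgenic replicate 3. With the longest transcript as the length, the share of *Vgll3* was 15.2% ± 0.937 and 20.3% ± 7.35 (SD, n = 3 each). *Vgll4* made up nearly all of the remainder.

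*Vgll1* (ENSMUSG00000031131, chromosome X from 57088106 to 57106540, plus strand) had 1 count in wild type replicate 1 and 0 counts in the other 5 libraries. All of these values are below the limit of 3 counts, so *Vgll1* was not detected at this depth in either genotype and was not tested. This limit covers counting error only.

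The spread between mice was larger in transgenic than in wild type skin for *Tead1* (coefficient of variation 21.05% against 8.67%), *Tead3* (13.9% against 2.52%), *Tead4* (19.4% against 9.83%), *Vgll3* and *Vgll4* (13.8% against 5.52%), and smaller for *Yap1* (5.37% against 7.24%), *Wwtr1* (3.45% against 5.65%) and *Tead2* (7.11% against 9.88%). These are descriptions of 3 libraries each, with no test. In YAP2-5SA-∆C skin, the library at the extreme was replicate 2 for each of the 5 genes of the first group, the library that also stood apart in the sums of hair, melanocyte and suprabasal markers. The part of these markers in the values of the members was not tested.

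Levels of different genes were compared as the mean CPM per kb of exon over the 6 libraries. *Wwtr1* was the highest of the members (23.6, range 22.0 to 24.4), followed by *Yap1* (14.4, 13.4 to 15.5), *Vgll4* (12.1, 9.91 to 13.3), *Tead1* (7.57, 6.23 to 10.4), *Tead3* (7.14, 6.49 to 8.47), *Vgll3* (6.27, 5.09 to 9.48), *Tead4* (3.85, 2.92 to 5.40) and *Tead2* (2.33, 2.13 to 2.60). *Vgll1* came last. The ranges of *Wwtr1* and *Yap1*, of *Yap1* and *Vgll4*, and of *Tead4* and *Tead2* did not overlap, whereas those of *Vgll4* and *Tead1*, *Tead1* and *Tead3*, *Tead3* and *Vgll3*, and *Vgll3* and *Tead4* did. Within each library, however, *Vgll3* was above *Tead4*. In wild type skin, *Wwtr1* exceeded 89.7% of the 14958 tested genes with an annotated length on this scale, *Yap1* 81.1%, *Vgll4* 78.8%, *Tead3* 61.7%, *Tead1* 60.9%, *Vgll3* 54.3%, *Tead4* 38.0% and *Tead2* 29.5%. The order at the top depended on which length was used. Divided by the length of the longest transcript, *Vgll4* (29.7 CPM per kb) and *Yap1* (25.2) were above *Wwtr1* (24.0), *Tead3* (13.9) was above *Tead1* (10.3), and *Vgll3* (6.36), *Tead4* (4.50) and *Tead2* (3.29) remained below them in the same order.

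**Figure D4:**
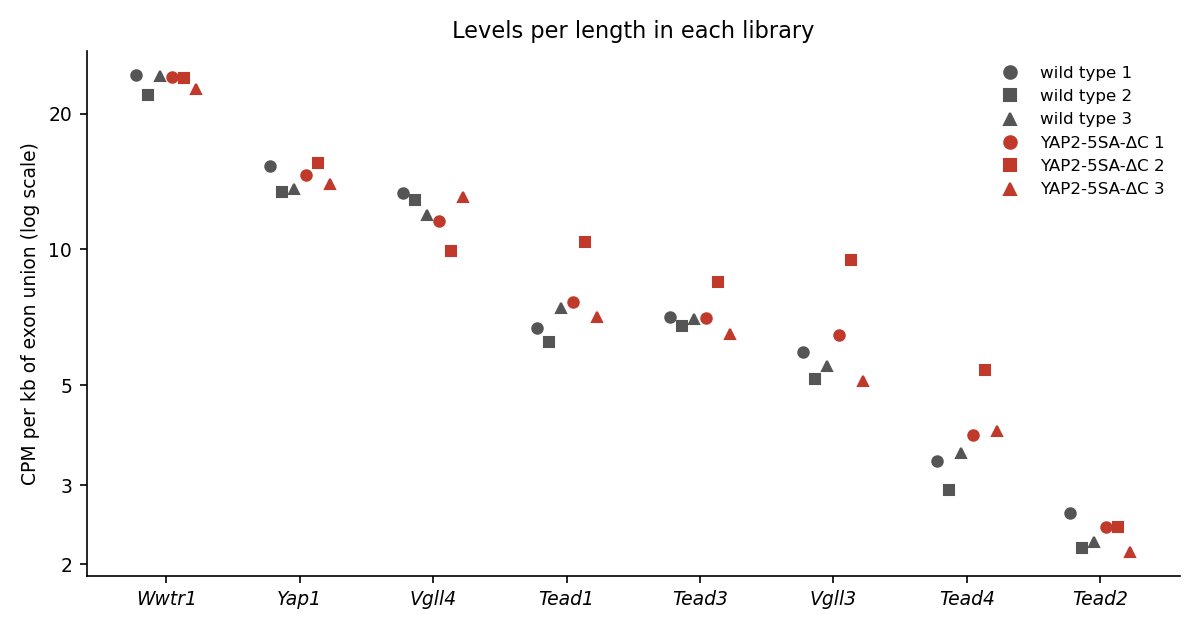
Level per length (CPM per kb of exon union, log scale) of the 8 members with counts above the limit of detection, in each library (shapes stand for replicates, grey for wild type and red for YAP2-5SA-∆C). Wild type and transgenic libraries were intermingled for *Wwtr1*, *Yap1* and *Tead2*, the members at the top and the bottom of the order included.

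The genes around the members in the pathway were then examined, first the regulators upstream of YAP and TAZ. Of 30 Hippo regulators (kinases, scaffolds, junction proteins and Ajuba family proteins), all were tested and none passed an FDR of 0.05 in the edgeR QL test, against 1.91% of all genes. An unadjusted p-value below 0.05 was found for 6 (3 higher and 3 lower), against 26.3% of all genes, and the genotypes did not overlap for 6 above and 6 below, against 15.5% and 18.2% of all genes. With voom the count was 0, with the likelihood-ratio test 1 (*Stk38l*) and with DESeq2 2, *Stk38l* among them. The median log2 fold change of the list was -0.0052, and that of all tested genes was -0.013. The core kinases *Lats1* and *Lats2*, which phosphorylate YAP and TAZ, had log2 fold changes of -0.01 each (FDR 0.965 and 0.937, edgeR QL test).

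The regulator with the lowest p-value was *Stk38l*, a kinase of the NDR family related to the LATS kinases, with 20.7, 16.1 and 17.4 CPM in wild type and 23.5, 29.4 and 28.8 CPM in transgenic skin. Each transgenic library was above each wild type library, and the log2 fold change was 0.59 (standard error 0.13, FDR 0.0596, edgeR QL test). *Taok3*, a kinase that acts on the Hippo kinases, had 16.7 ± 0.675 and 20.8 ± 2.09 CPM (SD, n = 3 each; log2 fold change 0.31, FDR 0.0999, edgeR QL test). On the lower side, *Stk3*, the Hippo kinase MST2, had 35.2, 34.6 and 35.2 CPM in wild type and 29.2, 30.2 and 31.2 CPM in transgenic skin. The genotypes did not overlap, with a log2 fold change of -0.21 (FDR 0.0868, edgeR QL test).

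Of 22 known targets of YAP and TAZ, 20 were tested (*Ankrd1* and *Foxf2* had too few counts), and 2 fell at an FDR below 0.05 (*Ccn2* and *Nt5e*), against 0.464% of all genes, while 0 rose, against 1.44%. With the likelihood-ratio test *Fjx1* and *Gadd45a* were lower as well and *Igfbp3* was higher (FDR 0.0368), and with DESeq2 the same genes and *Arhgef17*, which was lower, passed (FDR of *Igfbp3* 0.0180). An unadjusted p-value below 0.05 was found for 11 of the 20 targets, 5 higher and 6 lower, against 26.3% of all genes (13.3% higher and 13% lower), and the median log2 fold change was 0.01, with 10 positive and 10 negative values. *Ccn2* encodes the matricellular protein also called CTGF, whose gene is a standard readout of YAP and TAZ activity. It had 24.4, 24.6 and 26.3 CPM in wild type and 15.0, 12.2 and 15.3 CPM in transgenic skin. The genotypes were wide apart relative to their spread, with a log2 fold change of -0.82 (standard error 0.10, FDR 0.0327, edgeR QL test).

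*Nt5e*, which encodes the ectonucleotidase CD73, had 48.4, 51.8 and 51.1 CPM in wild type and 38.9, 35.9 and 39.2 CPM in transgenic skin (log2 fold change -0.41, standard error 0.06, FDR 0.0414, edgeR QL test). The calls of *Ccn2* and *Nt5e* depended on single libraries. Both were kept without transgenic replicate 2, and both were lost without any other single library, with FDR values up to 0.177 for *Ccn2* and 0.186 for *Nt5e*, although their log2 fold changes stayed between -0.88 and -0.71 and between -0.43 and -0.35. *Ccn1*, the paralog of *Ccn2* also called CYR61, lay on the other side, with 9.38, 9.92 and 9.30 CPM in wild type and 11.7, 12.2 and 12.9 CPM in transgenic skin (log2 fold change 0.36, FDR 0.0678, edgeR QL test). *Amotl2*, an angiomotin that binds YAP and is itself a target, had 97.1 ± 4.50 and 117 ± 11.7 CPM (SD, n = 3 each; log2 fold change 0.27, FDR 0.104, edgeR QL test), and it is also counted among the regulators, as are *Lats2* and *Ptpn14*.

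**Figure D5:**
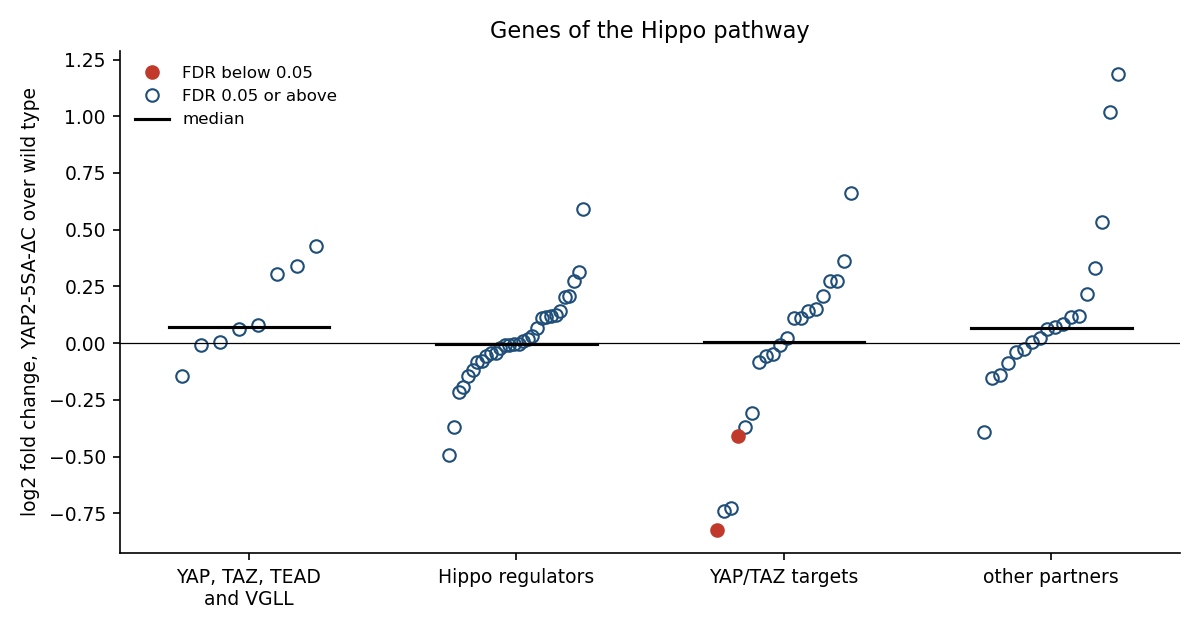
Log2 fold change (YAP2-5SA-∆C over wild type, vertical axis) of the tested genes of the 4 lists, ordered within each list. Filled red points have an FDR below 0.05 in the edgeR QL test, open points do not, and the thick line is the median, which lay between -0.01 and 0.07 in every list. The 2 filled points are *Ccn2* and *Nt5e*.

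The last list held 21 further partners of YAP, TAZ or TEAD, of which 18 were tested. None passed an FDR of 0.05 in the edgeR QL test or with voom, 5 had an unadjusted p-value below 0.05 (4 higher and 1 lower), against 26.3% of all genes, and the median log2 fold change was 0.07. With the likelihood-ratio test 2 passed (*Fos* and *Fosl1*), and with DESeq2 *Ctnnb1* did so as well. *Fosl1*, an AP-1 subunit that is found with TEAD at enhancers, had 1.98, 2.09 and 1.23 CPM in wild type and 3.05, 5.05 and 4.30 CPM in transgenic skin, without overlap (log2 fold change 1.19, standard error 0.26, FDR 0.0611, edgeR QL test). *Fos*, another AP-1 subunit and an immediate early gene, had 11.9, 11.7 and 10.3 CPM in wild type, and 32.1, 10.6 and 25.8 CPM in transgenic skin, where replicate 2 stayed within the wild type range. Its log2 fold change was 1.02 (FDR 0.136, edgeR QL test), and it was 1.37 (FDR 0.00824) without that library.

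*Ctnnb1*, which encodes β-catenin, was the partner with the lowest p-value on the lower side. It had 780.3, 772.7 and 749.8 CPM in wild type and 635.2, 513.3 and 604.8 CPM in transgenic skin, which gave a log2 fold change of -0.39 (standard error 0.09, FDR 0.0634, edgeR QL test). *Smad2*, an effector of TGF-β receptors, had 60.9 ± 3.62 and 55.2 ± 1.17 CPM (SD, n = 3 each; log2 fold change -0.14, FDR 0.215, edgeR QL test). *Vgll2*, the VGLL gene of skeletal muscle, was below the minimum for testing, with 0.604 ± 0.338 CPM in wild type and 0.311 ± 0.144 CPM in transgenic skin (SD, n = 3 each).

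Of 87 tested markers of the cell types of skin, 9 had an FDR below 0.05 in the edgeR QL test, against 1.91% of all genes. This count was 0 when transgenic replicate 3, wild type replicate 2 or the third wild type library was left out, 3 without transgenic replicate 1 and 26 without transgenic replicate 2, and it was 31 with the likelihood-ratio test and 32 with DESeq2. Among basal keratinocyte markers 1 of 8 rose, among stress keratinocyte markers 3 of 7, among macrophage markers 2 of 7 and among sebaceous gland markers 1 of 6, while 2 of 6 melanocyte markers fell. For the suprabasal keratinocyte, hair, fibroblast, endothelial, skeletal muscle, smooth muscle and adipocyte lists the count was 0. At an unadjusted p-value below 0.05 there were, in that order, 2 of 7 markers (1 higher and 1 lower), 8 of 9 (8 lower), 4 of 8 (4 higher), 2 of 8 (2 higher), 0 of 8, 3 of 6 (1 higher and 2 lower) and 0 of 7. Of all genes, 26.3% reached that level (13.3% higher and 13% lower). The summed level of wild type and transgenic libraries also did not overlap for the suprabasal keratinocyte (5151 to 5938 against 6147 to 10470 CPM), endothelial (122 to 141 against 143 to 171 CPM), macrophage (335 to 402 against 487 to 531 CPM), melanocyte (490 to 556 against 186 to 312 CPM) and sebaceous gland lists (2627 to 3398 against 3907 to 5690 CPM). It overlapped for the stress keratinocyte (1219 to 1621 against 1340 to 2530 CPM), fibroblast (9658 to 12996 against 12462 to 16189 CPM), skeletal muscle (1408 to 6792 against 1353 to 3481 CPM), smooth muscle (216 to 282 against 205 to 244 CPM) and adipocyte lists (986 to 1312 against 870 to 1399 CPM). The part of these cell types in the levels of the YAP, TAZ, TEAD and VGLL genes was not tested.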

How the data were processed

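The 6 libraries, 1 per mouse, were analysed from the table of raw read counts per Ensembl gene that the authors deposited. Paired-end reads had been aligned by the authors against GRCm38, using TopHat2 (2.0.12 per the labels) with Bowtie2 (2.1.0), and HTSeq-count was used on the uniquely mapped reads, so reads shared by near-identical genes are missing. The annotation release and strand setting are not given in the sources used here. The labels name a total RNA kit, whereas the methods describe mRNA libraries.

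Genes that reached 1 CPM in 3 or more libraries were kept, scaled by TMM and tested with glmQLFit and glmQLFTest of edgeR 4.0.16 (R 4.3.3), genotype being the only term, with Benjamini-Hochberg adjustment over all 15102 genes (FDR). The standard error was the log2 fold change divided by the square root of F. Library totals were 11225705 to 19505036 counts. Symbols, positions and exons came from GENCODE M21, which holds 26021 of the 26579 identifiers. Shares were tested by two-sided exact permutation over libraries. The fit was tested on simulated data.

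As alternatives, RLE and upper-quartile scaling, no count filter, at least 10 counts in every library, the likelihood-ratio test, voom of limma 3.58.1, DESeq2 1.42.0, a replicate block, leaving out each library and, for shares, the longest transcript were tried. Leaving out mitochondrial genes and the quasi-likelihood test without bias adjustment were added after seeing the data.

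The members and lists were chosen with earlier results of these data known. Named are all members, from each pathway list every called gene and, by lowest p-value, 2 on the higher and 2 on the lower side, and the 3 genes most like *Yap1* and *Wwtr1*. One gene that this rule names is not reported here. *Lats1*, *Lats2*, *Ankrd1*, *Foxf2*, *Ptpn14*, *Fjx1*, *Gadd45a*, *Igfbp3*, *Arhgef17*, *Vgll2* and *Krt17* were named after their values were seen.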

Additional observations from a re-analysis of the deposited data

How the results depend on the processing

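No member was called in any of the 16 alternatives, and *Yap1*, *Tead1*, *Tead4* and *Vgll3* stayed positive and *Vgll4* negative in each. The direction of *Tead2* changed with RLE (0.00204) and upper-quartile scaling (0.0131), without a count filter (0.00281), with DESeq2 (0.00084) and without mitochondrial genes (0.00203). Leaving out each library gave log2 fold changes of -0.0615 to 0.0816 for *Tead2*, -0.0433 to 0.0358 for *Wwtr1* and -0.0211 to 0.161 for *Tead3*. For *Yap1* they were 0.0271 (without wild type replicate 2) to 0.128 (without wild type replicate 1). The 288 genes called became 497 without a count filter, 1568 with the likelihood-ratio test and 1590 with DESeq2, and 0 to 817 when each library was left out (817 without transgenic replicate 2, 142 and 83 without the first wild type and the first transgenic library, and 0 when wild type replicate 2, the third wild type library or transgenic replicate 3 was absent, fits in which an unadjusted p-value below 0.05 was reached by 2726, 2844 and 3692 genes). With the likelihood-ratio test and DESeq2, the Hippo regulators called were 1 and 2, the targets 5 and 6, the other partners 2 and 3, and the cell type markers 31 and 32. Leaving out each library called 0 to 2 targets, 0 to 1 other partners and 0 to 26 markers. Wild type and transgenic replicates share numbers, but same-numbered libraries did not deviate together (r of -0.33, -0.23 and -0.05), so the numbers were not taken as pairs. The fit with a replicate block called 0 genes (2949 at an unadjusted p-value below 0.05), 0 targets and 0 markers. The cause of these differences was not tested. The shares kept their direction in every alternative, and 3 libraries a genotype limit each of these tests.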
